A study of Mus musculus with 20 samples.

Results

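Acetylcholine acts on 2 families of receptor, and 9 of their genes were followed here in the hippocampus and neocortex of miR-324-null and wild-type (WT) mice: the 5 muscarinic receptor genes *Chrm1* to *Chrm5* and the nicotinic subunit genes *Chrna4*, *Chrna5*, *Chrna7* and *Chrnb2*. They were listed by name, 9 genes out of the 35580 to which the transcripts of the series were summed. The series holds RNA-seq of 20 samples in 4 groups of 5, namely WT hippocampus, miR-324-null hippocampus, WT neocortex and miR-324-null neocortex. All mice were C57BL/6J males of 13.5 months. The null mice lacked *Mir324*, the gene of the microRNA miR-324, in every cell, after a CRISPR/Cas9 deletion made in zygotes of mixed C57BL/6 and CBA/ca descent and bred onto C57BL/6J, and WT and null lines were both derived from crosses of the heterozygotes. The labels name no treatment. The labels do not say whether a replicate number stands for the same mouse in both tissues, and p-values measure the spread between these samples. The study asked which transcripts change when miR-324 is removed. miR-324 itself was not read by these libraries of messenger RNA, so the deletion could not be checked in them.

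Muscarinic receptors span the membrane as single chains and signal through G proteins. M1, M3 and M5, from *Chrm1*, *Chrm3* and *Chrm5*, couple to Gq, which activates phospholipase C and makes neurons more excitable, whereas M2 and M4, from *Chrm2* and *Chrm4*, couple to Gi and Go, which lower cyclic AMP, open inward-rectifying potassium channels and hold back transmitter release. Nicotinic receptors are ion channels built of 5 subunits. In forebrain, *Chrna4* and *Chrnb2* give the common receptor with high affinity for nicotine, *Chrna5* gives an accessory subunit that joins it, and *Chrna7* gives a channel that forms from its own subunit alone and passes much calcium. The acetylcholine comes mostly from neurons of the basal forebrain, whose axons reach both tissues.

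Because the mice lacked a microRNA, the first question was whether the receptor transcripts hold matches to its seed, the stretch of bases 2 to 8 through which a microRNA pairs with its targets. Both mature arms, from RefSeq (GRCm38.p6), are shown because their seeds set the motifs that were searched. The seed is in capitals. The 5p arm lies at chr11:70012060-70012082 and the 3p arm at chr11:70012095-70012114, both on the plus strand.

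mmu-miR-324-5p: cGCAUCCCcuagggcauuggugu

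mmu-miR-324-3p: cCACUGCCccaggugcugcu

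For the 3p arm only this RefSeq form was searched. The complements of these seeds, GGGATGC for the 5p arm and GGCAGTG for the 3p arm, were searched on the transcript strand in the annotated 3′UTR of each gene's most abundant coding transcript. Of 14556 genes with such a 3′UTR, 7.94% held at least 1 match to the 5p seed and 14.3% at least 1 to the 3p seed. *Chrm4* and *Chrm5* are annotated as coding sequence only and could not be searched. Of the other 7 members, *Chrna4* and *Chrnb2*, the partner subunits of one receptor, held matches to the 5p seed, and *Chrnb2* and *Chrm2* held matches to the 3p seed. These letters were not in the 3′UTRs searched for *Chrm1*, *Chrm3*, *Chrna5* and *Chrna7*. A match is a description of the sequence and was not tested as a binding site.

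The 3′UTR of *Chrna4* transcript Chrna4-201, 2443 bases long, held 3 matches to the 5p seed, shown with the match in capitals (GENCODE M21 transcripts on GRCm38, minus strand, all exonic and in the 3′UTR). The first, at chr2:181023188-181023215, is followed by an A, which makes it an 8mer. The others lie at chr2:181023044-181023071 and chr2:181022802-181022829. The coordinates of each site, here and below, are those of all 28 bases shown and not of the match alone.

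Chrna4 site 1: gaacaggaagGGGATGCagaggcctggt

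Chrna4 site 2: tggaactgtcGGGATGCtgcaagatgac

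Chrna4 site 3: ctgaactgctGGGATGCtcctgacaggc

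The 3′UTR of *Chrnb2* transcript Chrnb2-201, 4667 bases long, held 2 matches to the 5p seed, at chr3:89756600-89756627 and chr3:89753059-89753086, and 3 to the 3p seed, at chr3:89755555-89755582 (an 8mer), chr3:89754614-89754641 and chr3:89752620-89752647, all on the minus strand.

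Chrnb2 5p site 1: caattctcctGGGATGCttcatccacag

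Chrnb2 5p site 2: gggtcagggtGGGATGCgggggtcaagt

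Chrnb2 3p site 1: gcatgggagtGGCAGTGatgaaaggtgt

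Chrnb2 3p site 2: aagggtgaagGGCAGTGtgtactgccca

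Chrnb2 3p site 3: gtttgctgttGGCAGTGggccagagggt

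*Chrm2* transcript Chrm2-202 held a single 8mer for the 3p seed in a 3′UTR of 3804 bases, at chr6:36527275-36527302 on the plus strand.

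Chrm2 3p site: ggctcaaaatGGCAGTGataccaggact

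The 3 matches of *Chrna4* are held by 1 of its 5 transcripts, which carried 67.4% of the gene's mean TPM, a measure of transcript abundance per length. The 5 matches of *Chrnb2* are held by 2 of its 3 transcripts, with 97.9% of the mean TPM, and the match of *Chrm2* by 1 of 2 transcripts, with 99.7%. Most of the *Chrnb2* share was Chrnb2-202, annotated as a processed transcript and not as coding. The coding Chrnb2-201, whose 3′UTR was searched, took 16.3% of the TPM in WT hippocampus and 13.4% in WT neocortex.

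Before the receptors are compared, some facts of the libraries bear on them. Summed estimated counts ran from 12752439 to 19617765 per sample, with a median of 14982602. Markers of hippocampal fields summed to between 526 and 676 CPM (counts scaled to a common library size) in the hippocampal samples and to at most 268 in the neocortex, and markers of neocortical upper layers to at least 288 in the neocortex and at most 122 in the hippocampus, so the tissue labels fit all 20 samples. Some samples carried markers of neighbouring structures. The choroid plexus list (*Ttr* and 4 others) summed to 4506 CPM in WT hippocampus 3, 3874 in null hippocampus 5 and 801 in null neocortex 2, and to at most 138 elsewhere. Striatal projection neuron markers summed to 189 to 461 CPM in WT and 279.7 to 689 CPM in null neocortex, with the highest sum in null neocortex 3 (exact permutation test of null against WT, p = 0.0873). Of 26 such tests of 13 marker lists, 4 had an exact p under 0.05 and none passed after adjustment over the 26 (lowest adjusted p = 0.258). These were striatal markers in hippocampus, lower in null samples (mean sum 138 against 165 CPM, exact p = 0.0159), habenular markers in hippocampus, higher in null samples (49.1 against 43.1 CPM, exact p = 0.0317), and in neocortex cholinergic neuron markers (7.64 against 2.04 CPM, exact p = 0.0317) and hippocampal field markers (210.2 against 143 CPM, exact p = 0.0397), both higher in null samples. Results were also computed, as a choice made after these values were seen, without the 4 samples WT hippocampus 3, null hippocampus 5, null neocortex 2 and null neocortex 3. In neocortex this removes null samples alone and keeps WT neocortex 2 and null neocortex 4, whose striatal sums were 461 and 501 CPM. A further alternative, also added after these values were seen, therefore left out the 3 neocortical samples with the highest striatal sums, WT 2, null 3 and null 4, where the others held at most 383 CPM. In bulk tissue, fewer cells of a type and less RNA per cell cannot be told apart.

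Levels of different genes were compared per length, as TPM. *Chrm1* was the most abundant of the 9 in every sample, at 92.6 ± 7.35 TPM in WT hippocampus and 76.6 ± 9.21 in WT neocortex (mean ± SD, n = 5). It made up 72.6% of the summed muscarinic TPM in WT hippocampus and 56.5% in WT neocortex, with 71.8% and 55.5% in the null mice. In WT hippocampus *Chrm3* (19.9 ± 1.64 TPM) and *Chrnb2* (19.8 ± 1.52) followed and overlapped, then *Chrna4* (14.1 ± 2.66), *Chrm4* (11.6 ± 1.61) and *Chrna7* (11.1 ± 3.17), each overlapping its neighbour in this order. *Chrna5* (2.90 ± 0.653), *Chrm2* (2.20 ± 0.725) and *Chrm5* (1.16 ± 0.454) closed the order, again with overlapping ranges.

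The order in WT neocortex differed below *Chrm1*. *Chrm3* (28.0 ± 4.63 TPM), *Chrm4* (24.9 ± 2.32) and *Chrna4* (22.8 ± 2.95) formed an overlapping series, and with all transcripts counted all 5 samples held more *Chrna4* than *Chrnb2* (17.9 ± 1.52). *Chrm2* (6.09 ± 0.711) and *Chrna7* (6.07 ± 0.650) could not be ordered, *Chrna5* stood at 2.37 ± 0.669, and *Chrm5* at 0.0641 ± 0.0878. The place of *Chrna4* and *Chrnb2* in both orders rests on which of their transcripts are counted. Chrna4-205, a short transcript, took 31.1% of the TPM of *Chrna4* in WT hippocampus and 32.5% in WT neocortex from 3.30% and 3.43% of its counts, and without it *Chrna4* stood at 9.71 ± 1.70 and 15.5 ± 2.71 TPM, above *Chrnb2* in 1 of the 5 WT neocortical samples. Chrnb2-202, annotated as a processed transcript and not as coding, took 81.9% of its TPM in WT hippocampus and 84.2% in WT neocortex, and with coding transcripts alone *Chrnb2* fell to 3.58 and 2.85 TPM. *Chrm4* and *Chrm5*, annotated without UTRs, are measured over the coding part alone.

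**Figure D1:**
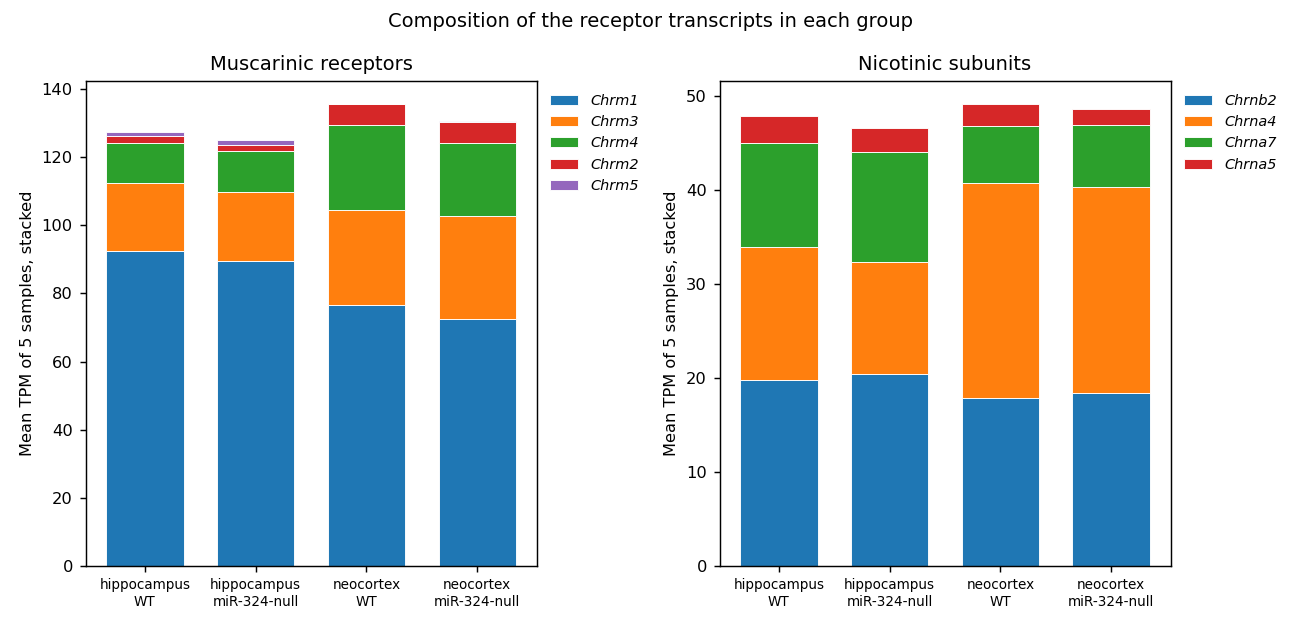
Stacked bars of the mean TPM (per-length transcript abundance) of the muscarinic receptor genes, on the left, and of the nicotinic subunit genes, on the right, in the 4 groups of 5 samples. *Chrm1* is the largest muscarinic segment in every group, *Chrm4* and *Chrm2* are taller in the neocortex, and *Chrna4* stands at 14.1 TPM in WT hippocampus against 22.8 in WT neocortex.

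The members' levels differed between the tissues. In WT mice 7 of the 9 were called between hippocampus and neocortex, 3 higher and 4 lower in hippocampus, out of 8 that passed the filter on low counts, by edgeR's quasi-likelihood test at an adjusted p of at most 0.05. Of all genes tested, 36.1% were called in that comparison, 18.1% higher and 18% lower. In null mice 8 of the 9 were called, 5 higher and 3 lower, with all 9 tested and 27.4% of all genes called, 13.8% higher and 13.6% lower. *Chrm5* passed the filter there only through its hippocampal counts, and of the other 8 members 7 were called, 4 higher and 3 lower. The members' median log2 fold change, hippocampus minus neocortex, was -0.12 in WT and 0.23 in null mice, or -0.09 in null mice without *Chrm5*, beside -0.0008 and 0.01 over all genes. The groups did not overlap for 6 of the 8 members tested in WT mice, and for *Chrm5*, which was not tested, where 26.5% of all genes tested did not overlap. In null mice they did not overlap for 7 of the 9, where 21.1% of all genes did not. The 7 include *Chrm5*, which was tested there only through its high group. Values per sample are given below as CPM scaled by TMM, in the order of the replicate numbers 1 to 5.

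The Gi-coupled receptors showed the largest differences among those called in WT mice, and both were lower in hippocampus. *Chrm2*, from which the M2 receptor of presynaptic terminals and interneurons is made, held 5.79, 9.81, 5.00, 6.61 and 10.6 CPM in WT hippocampus and 19.9, 19.2, 19.7, 23.4 and 20.2 in WT neocortex. In null mice it held 5.62, 5.97, 8.12, 7.83 and 5.59 CPM in hippocampus and 15.4, 24.0, 16.5, 16.9 and 26.8 in neocortex. Every neocortical sample was above every hippocampal one, and the null neocortex split into 3 lower and 2 higher samples. The log2 fold change, hippocampus minus neocortex, was -1.44 ± 0.17 (SE) in WT (adjusted p = 2.0e-05) and -1.58 ± 0.18 in null mice (adjusted p = 4.1e-05, edgeR's quasi-likelihood test).

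*Chrm4*, whose M4 receptor is known above all from striatal projection neurons, held 7.75, 8.59, 8.77, 10.3 and 9.62 CPM in WT hippocampus and 18.9, 19.2, 21.1, 17.8 and 18.5 in WT neocortex. The null samples held 9.05, 9.41, 12.7, 8.65 and 6.40 CPM in hippocampus and 15.0, 14.9, 21.5, 15.7 and 12.9 in neocortex. The tissues were apart in both genotypes, although the highest null hippocampal sample, at 12.7 CPM, lay close to the lowest null neocortical one, at 12.9. Its log2 fold change was -1.09 ± 0.08 in WT (adjusted p = 3.9e-07) and -0.78 ± 0.17 in null mice (adjusted p = 0.00498, edgeR). Striatal markers were higher in neocortex too, with sums of 189 to 461 CPM in WT neocortex against 150.3 to 179 in WT hippocampus, and their part in this difference was not tested. Without the 4 samples named above the null difference was -0.53 ± 0.15 (adjusted p = 0.0369, edgeR), and without the 3 neocortical samples high in striatal markers it was -0.62 ± 0.18 (adjusted p = 0.0379) and that in WT -1.08 ± 0.09 (adjusted p = 2.8e-06, edgeR).

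The Gq-coupled receptors did not move together. *Chrm1*, the main muscarinic receptor of cortical and hippocampal pyramidal cells, held 247.7, 259.0, 270.8, 252.2 and 232.3 CPM in WT hippocampus and 226, 207, 179.8, 179 and 195 in WT neocortex. In null mice the values were 228, 241, 237, 248 and 259 CPM in hippocampus and 177, 161, 174, 186 and 203 in neocortex. The hippocampal samples were above the neocortical ones in both genotypes, by 0.36 ± 0.07 on the log2 scale in WT (adjusted p = 8.8e-04) and by 0.44 ± 0.07 in null mice (adjusted p = 3.6e-04, edgeR).

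*Chrm3*, the second Gq-coupled receptor of forebrain, went the other way. It held 54.9, 54.9, 44.3, 47.1 and 48.2 CPM in WT hippocampus and 79.9, 70.0, 66.7, 61.2 and 55.9 in WT neocortex, which do not overlap. The null samples held 36.1, 45.1, 64.2, 63.4 and 42.3 CPM in hippocampus and 56.4, 67.9, 66.2, 65.6 and 78.6 in neocortex, where null hippocampus 3 and 4 reached into the neocortical range. The log2 fold change was -0.42 ± 0.09 in WT (adjusted p = 0.00284) and -0.41 ± 0.15 in null mice, where it was not called (adjusted p = 0.0628, edgeR). Without null hippocampus 3 or null hippocampus 4 it was called in null mice too, at -0.51 each (adjusted p = 0.0215 and 0.0251, edgeR), and on leaving out any other of the 10 samples it was not, with an adjusted p of up to 0.134. Without the 4 samples named above it was -0.35 ± 0.20 (adjusted p = 0.272, edgeR). Without the 3 neocortical samples high in striatal markers it was -0.42 ± 0.19 (adjusted p = 0.159, edgeR). The null difference was called by DESeq2, without (adjusted p = 0.0319) and with transcript-length offsets (adjusted p = 0.0298). It was also called by edgeR in 1 fit of all 20 samples (adjusted p = 0.0214) and with the replicate number as a block (adjusted p = 0.0371).

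*Chrm5*, a rare receptor best known from midbrain dopamine neurons, was close to the limit of detection. The estimated counts were 18, 9, 14, 20 and 11 in WT hippocampus and 2, 0, 2, 0 and 0 in WT neocortex, and the gene did not pass the filter in that comparison. With no filter the WT difference was fitted at 4.002 ± 0.611 (adjusted p = 1.1e-04, edgeR). In null mice they were 17, 30, 19, 12 and 14 in hippocampus and 3, 5, 6, 14 and 1 in neocortex. Every hippocampal sample was above every neocortical sample of its genotype in CPM. The summed counts of 72 and 4 in WT mice gave a ratio of 18.1 per scaled library, with an exact 95% binomial interval of 6.76 to 68.1, and those of 92 and 29 in null mice a ratio of 3.92 with an interval of 2.56 to 6.17. These intervals cover counting error only. In null mice the gene passed the filter only through the hippocampus, where it is high, so its fitted difference of 1.97 ± 0.47 (adjusted p = 0.00756, edgeR) describes a gene that had to differ to be tested. Without the 4 samples named above it was 1.98 ± 0.63 (adjusted p = 0.0616, edgeR), and without WT neocortex 2 and null neocortex 3 and 4, the last of which held 14 of the neocortical counts, it was 2.87 ± 0.52 (adjusted p = 0.00379, edgeR).

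The ratio of summed Gq-coupled (*Chrm1*, *Chrm3*, *Chrm5*) to summed Gi-coupled (*Chrm2*, *Chrm4*) TPM put these levels together. It was 8.39 ± 1.28 in WT and 8.38 ± 1.94 in null hippocampus, against 3.39 ± 0.455 in WT and 3.79 ± 0.616 in null neocortex (n = 5 each). It is made of the genes already tested and was given no test of its own.

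**Figure D2:**
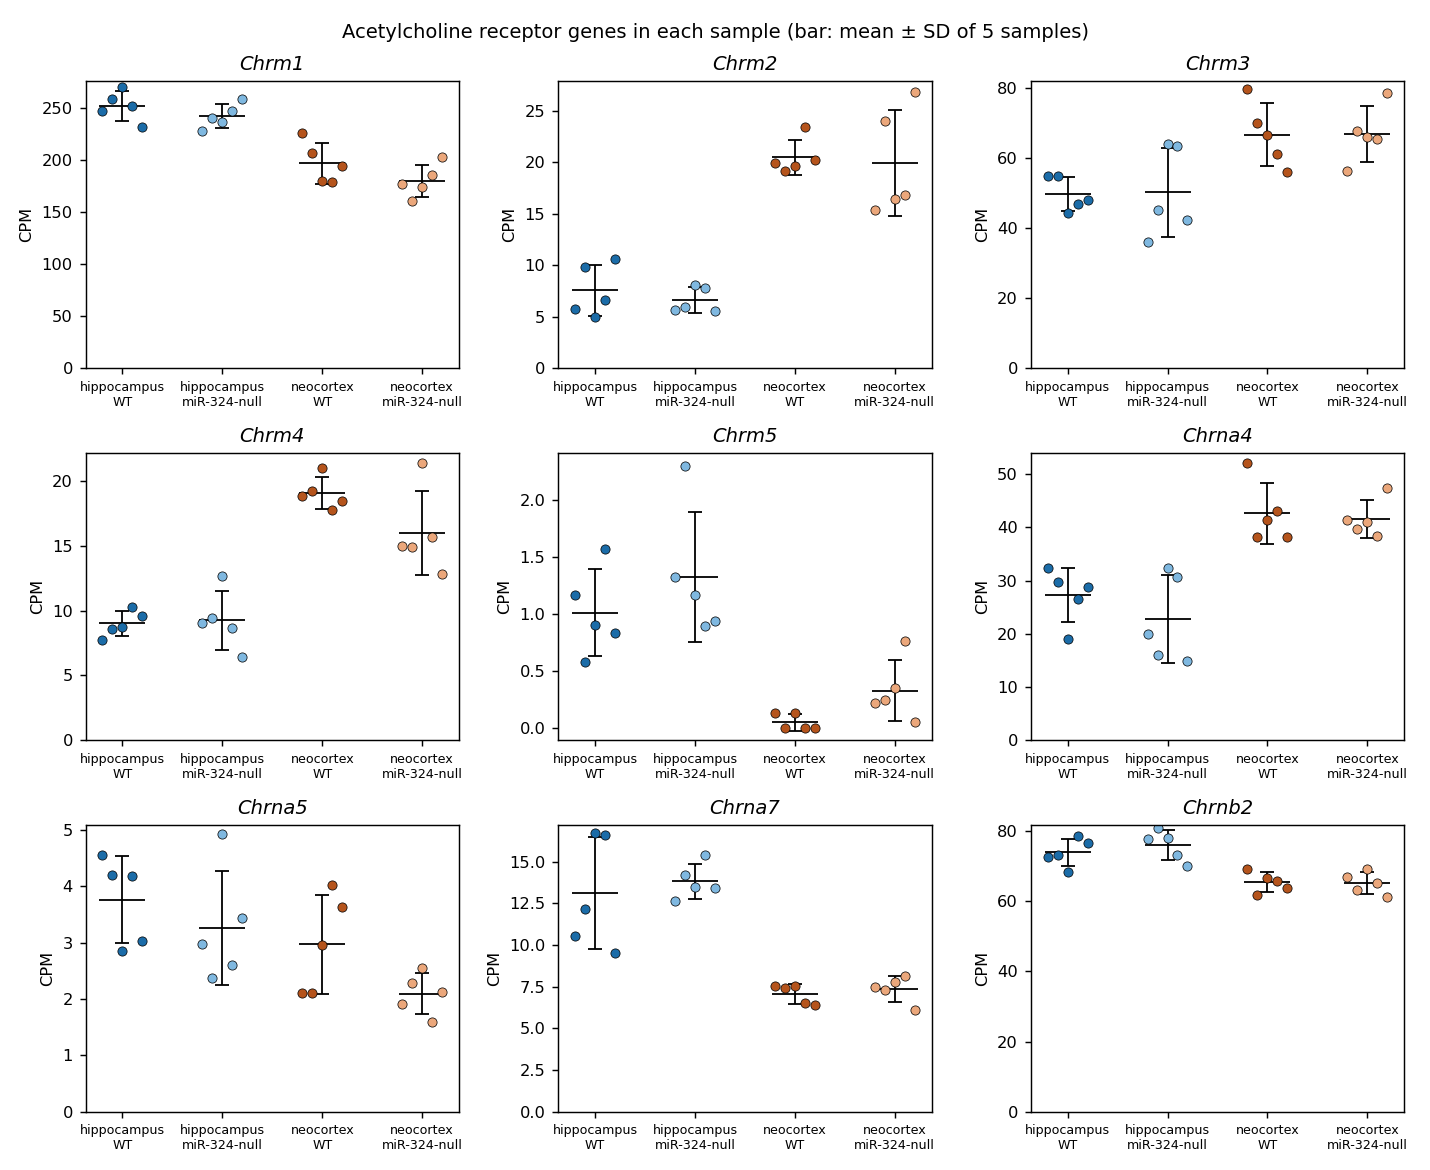
CPM, scaled by TMM, of each of the 9 genes in each sample, with 1 point per sample and the mean ± SD of the 5 samples of a group. Each panel has its own axis. *Chrm2*, *Chrm4* and *Chrna4* are higher in the neocortex and *Chrm1*, *Chrm5* and *Chrna7* in the hippocampus with no overlap of the tissues within a genotype, while WT and miR-324-null samples of 1 tissue overlap in every panel.

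Among the nicotinic subunits, *Chrna7* was higher in hippocampus. It held 10.5, 12.1, 16.7, 16.6 and 9.54 CPM in WT hippocampus and 7.55, 7.45, 7.57, 6.50 and 6.38 in WT neocortex. In null mice it held 12.6, 14.2, 13.5, 15.4 and 13.4 CPM in hippocampus and 7.47, 7.33, 7.78, 8.14 and 6.08 in neocortex. No hippocampal sample reached the neocortical range, and the log2 fold change was 0.89 ± 0.16 in WT (adjusted p = 5.8e-04) and 0.92 ± 0.10 in null mice (adjusted p = 2.2e-05, edgeR).

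*Chrna4* was lower in hippocampus. It held 32.3, 29.6, 18.9, 26.5 and 28.9 CPM in WT hippocampus and 52.2, 38.1, 41.5, 43.1 and 38.2 in WT neocortex. The null samples held 19.9, 16.1, 32.4, 30.7 and 14.9 CPM in hippocampus and 41.3, 39.7, 40.9, 38.4 and 47.5 in neocortex. The tissues did not overlap, and the spread was widest in the null hippocampus, with 3 samples below 20 and 2 above 30 CPM. The log2 fold change was -0.65 ± 0.13 in WT (adjusted p = 0.00125) and -0.85 ± 0.19 in null mice (adjusted p = 0.00556, edgeR).

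*Chrnb2*, the partner of *Chrna4*, differed little and in the opposite direction. It held 72.6, 73.2, 68.5, 78.6 and 76.7 CPM in WT hippocampus and 69.3, 61.7, 66.8, 65.8 and 63.8 in WT neocortex. In null mice it held 77.7, 80.9, 78.0, 73.3 and 69.9 CPM in hippocampus and 66.9, 63.2, 69.3, 65.1 and 61.2 in neocortex. The WT ranges overlapped and the null ranges were just apart, and on the log2 scale hippocampus exceeded neocortex by 0.18 ± 0.05 in WT (adjusted p = 0.0126) and by 0.23 ± 0.06 in null mice (adjusted p = 0.00829, edgeR). The last 1014 bases of both main transcripts of *Chrnb2*, which hold 2 of the 5 seed matches, are also exons of *Adar* on the other strand. *Adar* stood at 166 CPM in WT hippocampus and 200.3 in WT neocortex. The libraries were stranded but the use of strand in the counting is not given in the sources used here, so reads of the 2 genes could not be told apart there.

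The balance of the partner subunits was compared as a ratio, with all transcripts of each gene. The ratio of *Chrna4* to *Chrnb2* TPM was 0.716 ± 0.142 in WT hippocampus and 1.28 ± 0.121 in WT neocortex, and 0.586 ± 0.218 and 1.20 ± 0.154 in null mice. Tissues differed in an exact permutation test of 5 against 5 (two-sided p = 0.00794 in each genotype, the smallest that it can give, adjusted over 4 comparisons to 0.0159). Genotypes did not differ past the threshold in hippocampus (exact p = 0.262, adjusted p = 0.349) or neocortex (exact p = 0.452, adjusted p = 0.452). With coding transcripts alone, an alternative added after the data were seen, the ratio was 4.14 ± 1.36 in WT hippocampus, 10.4 ± 7.47 in WT neocortex, 3.96 ± 1.52 in null hippocampus and 6.11 ± 2.54 in null neocortex. It was then above 1 in every group mean, and the tissues differed in WT (exact p = 0.00794) but not past the threshold in null mice (exact p = 0.119). With Chrna4-205 left out, likewise added, the ratio was below 1 in every group mean, at 0.490 ± 0.0863 in WT hippocampus, 0.859 ± 0.0896 in WT neocortex, 0.396 ± 0.145 in null hippocampus and 0.872 ± 0.112 in null neocortex, and the tissues differed in each genotype (exact p = 0.00794). So the ratio was lower in hippocampus under all 3 choices of transcripts, while whether it lay above or below 1 depended on the choice.

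*Chrna5* was low in both tissues. It held 4.56, 4.20, 2.86, 4.17 and 3.03 CPM in WT hippocampus and 2.11, 2.10, 2.96, 4.02 and 3.64 in WT neocortex, which overlap. In null mice it held 2.97, 2.37, 4.92, 2.61 and 3.44 CPM in hippocampus and 1.90, 2.27, 2.56, 1.59 and 2.12 in neocortex, which overlap as well. The log2 fold change was 0.34 ± 0.21 in WT, not called (adjusted p = 0.239), and 0.66 ± 0.22 in null mice (adjusted p = 0.0400, edgeR). The null call was lost on leaving out any 1 of 7 of its 10 samples, namely null hippocampus 1, 3 or 5 or null neocortex 1, 2, 4 or 5, with adjusted p from 0.0536 to 0.103 (edgeR). It was also lost without the 4 samples named above (0.80 ± 0.29, adjusted p = 0.0925, edgeR) and without null neocortex 3 and 4 (0.64 ± 0.26, adjusted p = 0.119, edgeR).

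**Figure D3:**
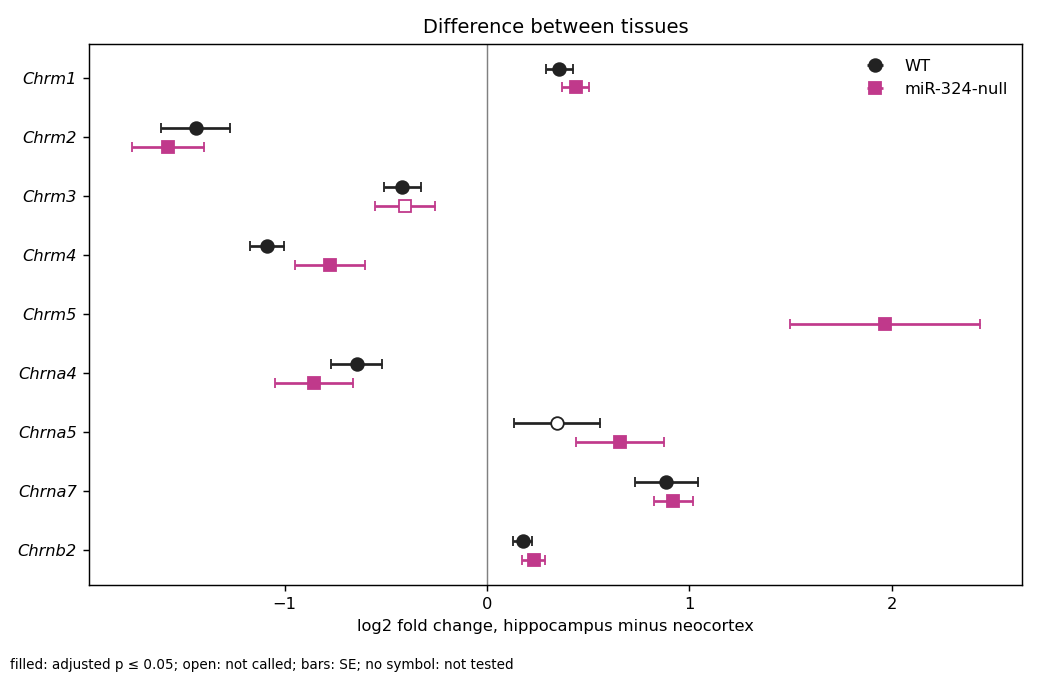
Log2 fold change, hippocampus minus neocortex, of each gene in WT (circles) and miR-324-null mice (squares), with SE from edgeR. Filled symbols passed an adjusted p of 0.05. Every gene tested in both genotypes lies on the same side of 0, with null values from -1.58 for *Chrm2* to 0.92 for *Chrna7*. *Chrm5* was not tested in WT and lies at 1.97 in null mice.

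The question of the study was the genotype, and here no member was called. In hippocampus 0 of the 9 passed edgeR's test, 0 had an unadjusted p under 0.05 and DESeq2 called 0, while 0.128% of all genes were called and 11.1% had an unadjusted p under 0.05. In neocortex 0 of 8 tested passed and DESeq2 called 0, 1 had an unadjusted p under 0.05, and 0.315% of all genes were called and 12.2% had such a p. WT and null samples overlapped for every member in both tissues, where 2.56% of all genes tested in hippocampus and 2.3% in neocortex did not overlap. The members' median difference, null minus WT, was 0.01 in hippocampus and -0.03 in neocortex, beside 0.001 and 0.005 over all genes. A p that misses the threshold does not show that the genotypes were equal, and each difference is given with its error.

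The genes with seed matches were examined first. *Chrna4*, with 3 matches for the 5p arm, had a log2 fold change, null minus WT, of -0.25 ± 0.22 in hippocampus (adjusted p = 0.708) and -0.03 ± 0.09 in neocortex (adjusted p = 0.932, edgeR). *Chrnb2*, with 5 matches for both arms together, had 0.04 ± 0.06 in hippocampus (adjusted p = 0.842) and -0.00048 ± 0.05 in neocortex (adjusted p = 0.999, edgeR). *Chrm2*, with 1 match for the 3p arm, had -0.19 ± 0.21 (adjusted p = 0.796) and -0.03 ± 0.14 (adjusted p = 0.961, edgeR). None of the 3 was called higher in null mice, and *Chrnb2* had the smallest SE of them in both tissues. On leaving out 1 sample, the hippocampal value ran from -0.42 to -0.13 for *Chrna4* and from -0.31 to -0.037 for *Chrm2*. The reads of *Chrnb2* in the part shared with *Adar* cannot be assigned.

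In the remaining members the differences in hippocampus lay between -0.20 for *Chrna5* and 0.39 for *Chrm5*. *Chrm1* had -0.06 ± 0.05 (adjusted p = 0.741), *Chrm3* 0.01 ± 0.15 (adjusted p = 0.987), *Chrm4* 0.04 ± 0.16 (adjusted p = 0.953) and *Chrna7* 0.08 ± 0.15 (adjusted p = 0.890, edgeR). Without the 4 samples named above the values of *Chrm4* and *Chrna7* were 0.14 and 0.19 (adjusted p = 0.749 and 0.677, edgeR). The values for *Chrm5* and *Chrna5* were 0.39 ± 0.33 (adjusted p = 0.700) and -0.20 ± 0.22 (adjusted p = 0.783, edgeR), and on leaving out 1 sample they ran from 0.10 to 0.59 and from -0.40 to -0.10. None of these differences was larger than the spread between samples.

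In neocortex the lowest unadjusted p belonged to *Chrna5*, the accessory subunit, at -0.50 ± 0.22 (adjusted p = 0.383, edgeR), with mean levels of 2.97 ± 0.875 CPM in WT and 2.09 ± 0.364 in null samples. The null samples lay within 1.59 to 2.56 CPM and the WT samples within 2.10 to 4.02, so 3 WT samples were above all null ones. *Chrm4* followed at -0.25 ± 0.12 (adjusted p = 0.410, edgeR). For *Chrm4*, 4 of the 5 null samples (12.9 to 15.7 CPM) were below all WT samples, and null neocortex 3, which had the highest sum of striatal markers, held the most at 21.5 CPM. Without the 4 samples named above, which in neocortex are null 2 and null 3 and no WT sample, the difference in *Chrm4* was -0.40 ± 0.09 (adjusted p = 0.157) and that in *Chrna5* was -0.66 ± 0.26 (adjusted p = 0.473, edgeR). Without WT 2, null 3 and null 4, the samples of both genotypes high in striatal markers, they were -0.42 ± 0.10 (adjusted p = 0.262) and -0.59 ± 0.25 (adjusted p = 0.731, edgeR). On leaving out 1 sample the values ran from -0.38 to -0.18 for *Chrm4* and from -0.60 to -0.37 for *Chrna5*. Neither was called.

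*Chrm1* had -0.12 ± 0.07 in neocortex (adjusted p = 0.530), *Chrm3* 0.01 ± 0.10 (adjusted p = 0.979) and *Chrna7* 0.06 ± 0.11 (adjusted p = 0.876, edgeR). For *Chrm1* the value ran from -0.17 to -0.073 on leaving out 1 sample and was -0.07 ± 0.08 without null neocortex 2 and 3. *Chrm5* did not pass the filter in neocortex. Its counts of 29 in null and 4 in WT samples gave a ratio of 6.05 with an exact interval of 2.12 to 23.7, which covers counting error only, and null neocortex 4 held 14 of the 29 counts. Hippocampal field markers also had a higher mean sum in null neocortex (210.2 against 143 CPM), which did not pass after adjustment. *Chrm5* was higher in hippocampus, and the part of hippocampal tissue in this ratio was not tested. With no filter its log2 fold change was 2.44 ± 0.84 (adjusted p = 0.303, edgeR).

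**Figure D4:**
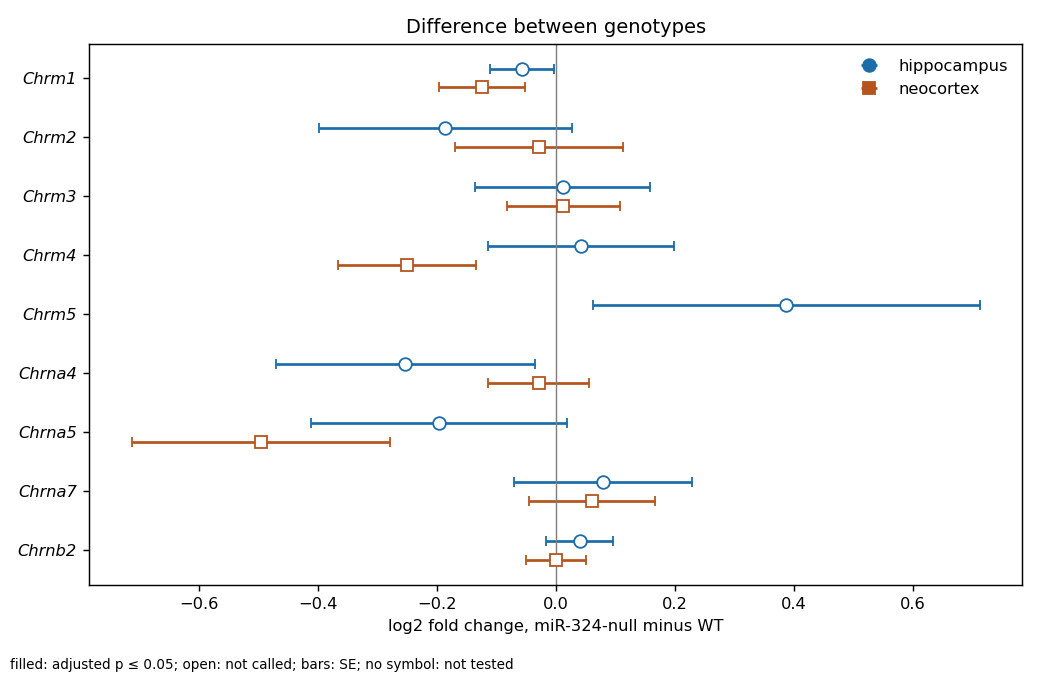
Log2 fold change, miR-324-null minus WT, of each gene in hippocampus (circles) and neocortex (squares), with SE from edgeR. All symbols are open, since no gene passed an adjusted p of 0.05, and the values run from -0.50 for *Chrna5* in neocortex to 0.39 for *Chrm5* in hippocampus.

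The difference between the tissues was also compared between genotypes, as the interaction of tissue and genotype in 1 fit of all 20 samples. None of the 9 was called (lowest adjusted p = 0.880, edgeR), where 0.0195% of all genes were called, DESeq2 called 0, and 1 member against 5.57% of all genes had an unadjusted p under 0.05. That member was *Chrm5*, at -2.04 ± 0.88 (adjusted p = 0.880, edgeR), whose neocortical counts are those given above, and it was -0.87 ± 0.90 without the 3 neocortical samples high in striatal markers. For *Chrm4* the interaction was 0.30 ± 0.20, or 0.54 ± 0.17 without the 4 samples named above (adjusted p = 0.935 and 0.999, edgeR), and for *Chrna4* it was -0.22 ± 0.25. In the main edgeR fits *Chrm3* was called between tissues in WT only and *Chrna5* in null mice only. Some other fits, given above, called *Chrm3* in null mice too. The interactions were 0.01 ± 0.19 for *Chrm3* and 0.31 ± 0.31 for *Chrna5*, so neither was shown to differ between genotypes.

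Within the hippocampus the samples differed from each other in *Chrna4* and *Chrm3* more than the genotypes did. The 4 samples lowest in *Chrna4*, at 14.9 to 19.9 CPM, were null 5, null 2, WT 3 and null 1, and the other 6 held at least 26.5. The same 4 were the lowest in *Chrm3*, at 36.1 to 45.1 CPM against at least 47.1 in the others. They were also the 4 lowest in the summed upper-layer markers *Cux2*, *Rorb* and *Lamp5*, at 77.6 to 82.8 CPM against at least 92.1, and in the summed thalamic markers, at 48.1 to 71.0 CPM against at least 74.5. The same 4 were the highest in the choroid plexus markers, at 4506, 3874, 138 and 112 CPM against at most 106. Not every marker in these lists set the same 4 samples apart. Of the 3 upper-layer markers the same 4 were the lowest in *Cux2* alone (20.5 to 27.2 CPM against at least 33.5), while *Rorb*, at 18.1 to 19.4 CPM against 18.6 to 22.2, and *Lamp5* overlapped. Of the 5 thalamic markers they were the lowest in *Slc17a6* alone (3.60 to 12.6 CPM against at least 22.4), and of the 5 choroid plexus markers the highest in *Ttr* and *Folr1*. These are 3 of 13 marker lists, and in the other 10 the same 4 were neither the 4 lowest nor the 4 highest. The sums in the neocortex were 288 to 505 CPM for the upper layers and 57.4 to 83.9 for the thalamus. All 3 upper-layer and all 5 thalamic markers were measured in both tissues, and the part of these cells or of choroid plexus in the levels of *Chrna4* and *Chrm3* was not tested.

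**Figure D5:**
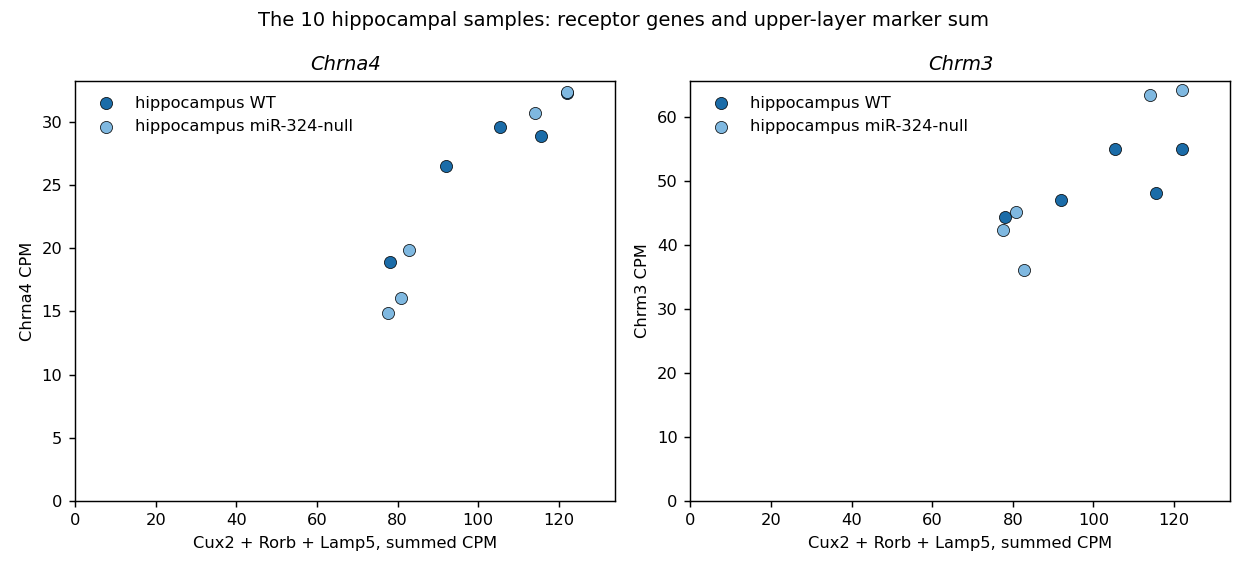
CPM of *Chrna4* (left) and *Chrm3* (right) against the summed CPM of 3 upper-layer markers in the 10 hippocampal samples, 5 WT and 5 miR-324-null. The 4 samples with sums below 83 CPM hold the 4 lowest values of both genes, and WT 1 and null 3 nearly coincide at the top right of the left panel.

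The genes most like each member over the 20 samples are given as a description, since the samples share tissue and library differences. On log2 CPM the highest Pearson r was with *Pcdh1* for *Chrm1* (0.95), *Rims3* for *Chrm2* (0.98), *Pcdh9* for *Chrm3* (0.92), *Gabrg3* for *Chrm4* (0.94), *Ripor2* for *Chrm5* (0.96), *Tmem44* for *Chrna4* (0.97), *Otos* for *Chrna5* (0.74), *Foxo1* for *Chrna7* (0.96) and *Rae1* for *Chrnb2* (0.94). After the 4 group means were subtracted, which leaves the spread within groups, the genes most like *Chrna4* included *Sowahb* (0.94) and *Rgs6* (0.93). *Chrm3* was then most like *Rasgrp1* (0.92), *Chrm1* like *Npy1r* (0.88), *Chrm2* like *Stac2* (0.86), *Chrm4* like *Sh2d3c* (0.84), *Chrm5* like *Ripor2* (0.82), *Chrna7* like *Foxo1* (0.82), *Chrnb2* like *Atg9b* (0.85) and *Chrna5* like *Gm14326* (0.79).

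Other genes of acetylcholine signalling were read from 4 lists with 42 genes in all. Between tissues 20 of the 32 tested were called in WT mice and 13 of 32 in null mice, by edgeR's quasi-likelihood test at an adjusted p of at most 0.05, beside 36.1% and 27.4% of all genes. The list medians stood between 0.01 for muscarinic signalling and 0.87 for the other nicotinic subunits in WT mice, and between -0.27 for acetylcholine synthesis, transport and breakdown and 0.37 for the other nicotinic subunits in null mice. Of the 12 other nicotinic subunit genes, 5 passed the filter in both tissue comparisons. In WT mice *Chrna1*, the muscle subunit (log2 fold change 1.03 ± 0.21), *Chrna2* (0.87 ± 0.27) and *Chrna3* (0.97 ± 0.30) were higher in hippocampus and *Chrnb3* was lower (-2.35 ± 0.25). In null mice *Chrna1* (0.79 ± 0.18) was higher and *Chrnb3* (-1.36 ± 0.27) lower. These are low genes, all below 5 CPM in every sample.

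The genes that make, load, take up and break down acetylcholine were sparse, apart from that of the breakdown enzyme, *Ache*, at 49.2 CPM in WT hippocampus and 44.8 in WT neocortex. Of the 7, 4 passed the filter between tissues. No gene was called in WT mice, and in null mice *Slc5a7*, the choline transporter, was lower in hippocampus (-1.52 ± 0.48, adjusted p = 0.0314, edgeR). The highest levels of *Chat*, the synthetic enzyme, were 1.55 CPM in WT and 0.312 in null hippocampus and 0.868 in WT and 3.51 in null neocortex, and those of *Slc18a3*, the vesicular transporter, were 4.45, 0.234, 0.651 and 2.50 CPM. The summed cholinergic neuron markers were uneven, with 14.1 CPM in 1 WT hippocampal and 20.4 in 1 null neocortical sample, beside group medians of 0.985 and 5.28. That null sample was null neocortex 3, which also had the highest striatal sum, at 689 CPM. In null neocortex *Slc5a7* had a median of 2.22 and a highest value of 6.30 CPM, and its call without null neocortex 3 is not given here.

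Of 7 genes for chaperones and Ly6-type modulators of nicotinic receptors, all were tested. *Ric3*, a chaperone of *Chrna7* receptors, was not called in either genotype (0.05 ± 0.05 in WT). In WT mice *Tmem35a*, which encodes the chaperone NACHO (0.32 ± 0.06), *Ly6h* (0.53 ± 0.07) and *Lypd1* (0.77 ± 0.16) were higher in hippocampus, and *Lynx1* (-0.23 ± 0.05), *Lypd6* (-0.53 ± 0.08) and *Lypd6b* (-1.16 ± 0.13) were lower. In null mice *Lypd6* (-0.41 ± 0.08) and *Lypd6b* (-0.90 ± 0.13) were lower and no gene was called higher.

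All 16 genes of muscarinic signalling were tested. In WT mice 4 were higher in hippocampus, among them the Gq subunits *Gnaq* (0.26 ± 0.05) and *Gna11* (0.25 ± 0.04) and the inward-rectifying channel *Kcnj6* (0.55 ± 0.10), and 6 were lower. Among the lower ones were *Plcb4* (-1.75 ± 0.07), a phospholipase C that Gq activates, and *Rgs4* (-1.70 ± 0.05), which speeds the switching off of Gq and Gi, followed by *Plcb1* (-0.38), *Rgs7* (-0.32), *Gnb5* (-0.28) and *Gnai1* (-0.24). In null mice 4 were higher, among them *Gnaq* (0.28), *Gna11* (0.23) and *Gnai3* (0.19), and 4 lower, *Plcb4* (-1.89), *Rgs4* (-1.31), *Plcb1* (-0.35) and *Gnb5* (-0.27).

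Between genotypes edgeR called 0 of the 42 genes in either tissue. In hippocampus 2 of 32 tested had an unadjusted p under 0.05, beside 11.1% of all genes, and DESeq2 called 1, *Rgs4*. It stood at 120.2 to 135 CPM in WT and 149 to 159 CPM in null hippocampus with no overlap, a log2 fold change of 0.28 ± 0.05 with an adjusted p of 0.0503 by edgeR's quasi-likelihood test and 9.6e-06 by DESeq2. In neocortex 6 of 34 had an unadjusted p under 0.05, beside 12.2% of all genes, and DESeq2 called 2. These were *Tmem35a*, at 37.7 to 42.6 CPM in WT and 44.8 to 54.6 in null samples (0.34 ± 0.07, adjusted p = 0.0582 by edgeR and 0.00205 by DESeq2), and *Chrnb3*, at 3.55 to 4.74 CPM in WT and 1.83 to 3.62 in null samples (-0.68 ± 0.17, adjusted p = 0.149 by edgeR and 0.0406 by DESeq2). On simulated counts of these comparisons, 8.1% of DESeq2's calls in hippocampus and 7.14% in neocortex were of unchanged genes, against 2.52% and 3.92% of edgeR's. The simulation gave every gene the same relative spread between samples beyond counting error. These shares therefore need not hold for the real samples, and they do not decide whether the DESeq2 calls were false. The share of all genes that DESeq2 called is not given here, so its counts of 1 and 2 stand without that comparison. Without a call by edgeR, *Rgs4*, *Tmem35a* and *Chrnb3* were singled out after their values were seen. In the interaction 0 of 34 were called by either tool and 5 had an unadjusted p under 0.05, beside 5.57% of all genes.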

How the data were processed

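RNA from 20 samples was read by stranded sequencing of poly(A) RNA. The authors deposited, for each sample, kallisto's estimated counts per transcript, with transcript lengths and effective lengths. The TPM values deposited by the authors come from the same kallisto runs, and are transcript abundances scaled for effective length and for the total of the library. Per the study's methods the reads were assigned to the mouse GRCm38 transcriptome of release 92, whereas the labels' processing notes list kallisto, DESeq2 and GRCh38. The transcript identifiers are mouse ones. Of 115270 transcripts 113580 were matched to GENCODE M21 (GRCm38), and the other 1690 held at most 0.556% of a sample's counts and were left out.

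Estimated counts were summed to 35580 genes and rounded. Each comparison of 5 against 5 was fitted with edgeR 4.0.16 (R 4.3.3), with TMM scaling, its filterByExpr filter and its quasi-likelihood test. Adjustment followed Benjamini and Hochberg over the 14796 to 15391 genes tested, with a threshold of 0.05. The interaction was fitted on all 20 samples. CPM are counts scaled by the TMM-adjusted library size. No filter or pseudocount was used for TPM. Counts of 12752439 to 19617765 per sample set the precision, and no 2 samples were near-identical (the closest differed by 7.69% of counts). On simulated counts for the 5 comparisons edgeR recovered 90.5% to 98.5% of genes changed by 1 on the log2 scale with a mean of at least 20 counts, which says nothing of smaller changes, and 2.52% to 6.22% of its calls were of unchanged genes. Every gene was simulated with the same relative spread between samples, so these shares need not hold for genes that vary more. Alternatives were DESeq2 1.42.0, DESeq2's size factors, other filters, transcript-length offsets as in the study's Tximport step, 1 fit of all 20 samples, the replicate number as a block, leaving out each sample, leaving out 4 samples, leaving out 3 neocortical samples, and for the *Chrna4* to *Chrnb2* ratio other sets of transcripts.

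The 9 receptor genes, the lists of other genes and the 13 marker lists were chosen with earlier results of these data known. All 9 were named, and genes of a list were named when called or when first in it, except that some genes are not reported here. Python 3.11.15, pandas 2.3.3, scipy 1.17.1 and matplotlib 3.10.9 were used for the rest.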

Additional observations from a re-analysis of the deposited data

Results flagged for a closer look

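In 92 groups of 5 samples, made of the 9 receptor genes, the *Chrna4* to *Chrnb2* ratio and 13 summed marker lists in each of the 4 groups, the highest and lowest sample were compared with the rest by Dixon's criterion, which chance meets in about 1 of 20 groups, and 12 met it. Among the receptors this was *Chrm2* in WT neocortex, where 1 sample held 23.4 CPM, the next 20.2 and the lowest 19.2. The other 11 were marker sums. For choroid plexus they were 4506 CPM in 1 WT hippocampal sample (next 106), 3874 in 1 null hippocampal sample (next 138) and 801 in 1 null neocortical sample (next 64.0). For striatal projection neurons the sum was 461 CPM in 1 WT neocortical sample (next 249). For cholinergic neurons the sums were 14.1 CPM in 1 WT hippocampal sample (next 1.65), 3.98 in 1 WT neocortical sample (next 1.78) and 20.4 in 1 null neocortical sample (next 6.81). Oligodendrocyte markers were at 3190 CPM, the lowest, in 1 null hippocampal sample (next 4148) and at 6014, the highest, in 1 null neocortical sample (next 4299). Hippocampal field markers were lowest at 114 CPM in 1 WT neocortical sample (next 146), and endothelial markers highest at 180.1 CPM in 1 null hippocampal sample (next 135).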

How the results depend on the processing

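The counts of members called were 0 under every setting for both genotype comparisons and the interaction, 7 to 8 between tissues in WT mice and 6 to 9 in null mice, with 6 when WT hippocampus 3, null hippocampus 5 and null neocortex 2 and 3 were left out. All tissue differences kept their direction. In null mice *Chrm3* was called by DESeq2 (adjusted p = 0.0319), with length offsets in DESeq2 (0.0298) and in 1 fit of all 20 samples (0.0214), and the call of *Chrna5* was lost with no filter (0.0639) and with length offsets in edgeR (0.0625) or DESeq2 (0.0521). Genotype differences near 0 changed sign. These were *Chrnb2* in neocortex with at least 10 counts in every sample (0.00140) and the interaction of *Chrm3* with no filter (-0.000981) and with length offsets in edgeR (-0.037) or DESeq2 (-0.036). Without the 3 neocortical samples high in striatal markers they were *Chrm2* (0.10) and *Chrna7* (-0.0078) in neocortex and the interaction of *Chrm3* (-0.030). The cause was not tested.

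On leaving out each sample, the log2 difference between genotypes in hippocampus ran from -0.094 to 0.11 for *Chrm3*, -0.10 to 0.15 for *Chrm4* and -0.014 to 0.18 for *Chrna7*. In neocortex it ran from -0.15 to 0.042 for *Chrm2*, -0.051 to 0.083 for *Chrm3*, -0.080 to 0.051 for *Chrna4* and -0.026 to 0.024 for *Chrnb2*. The interaction ran from -0.10 to 0.098 for *Chrm3* and -0.074 to 0.13 for *Chrna7*.

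With coding transcripts alone the difference in the *Chrna4* to *Chrnb2* ratio between tissues in null mice was -2.16 and no longer past the threshold (exact p = 0.119). Without Chrna4-205 the difference in that ratio between genotypes in neocortex changed sign (0.0130, exact p = 0.794).

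With the replicate number as a block (replicate block), 7 members were called between tissues in WT and 9 in null mice, *Chrm3* included (adjusted p = 0.0371), and *Chrm3* changed sign in the genotype difference in hippocampus (-0.019) and in the interaction (-0.022). Correlations of same-numbered samples, as deviations from group means, were -0.17 to 0.11 between genotypes in hippocampus, -0.10 to 0.12 in neocortex, -0.10 to 0.10 between tissues in WT and 0.02 to 0.18 in null mice, and 0, 1, 2 and 3 of 5 samples correlated best with their own number, and all 5 correlations were positive in null mice. They did not all exceed 0.1 in any comparison, so the number was not taken to pair the samples, which stays a choice of design. At this depth *Chrm5* in neocortex, with 0 to 14 counts per sample, limits any statement on it.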
